A study of Mus musculus with 20 samples.

Results

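The potassium channel genes of the mouse colon were taken as all probe sets annotated to a single gene symbol that starts with Kcn. The annotation held 97 such probe sets, of which 96 carried values, out of 29195 probe sets with values in all. They stood for 90 gene symbols, each represented by its brightest probe set. In all, 81 of the 90 genes passed a filter on dim signals and were tested among 16739 genes, and 9 did not pass. Each of the 20 mice, all C57BL/6JOlaHsd females aged about 11 weeks, gave total RNA from the middle part of the colon to 1 Affymetrix array. The 5 groups held 4 mice each. Cyclosporine colitis mice drank 3% dextran sulfate sodium (DSS), which damages the lining of the colon, over 5 days, and they received 25 mg/kg of the calcineurin inhibitor cyclosporine by mouth each day, from day 1 to day 15, suspended in methocel. Probiotic colitis mice drank the same DSS and were given a mixture of the strains L930BB and IM386 by gastric tube, before DSS and then alongside it. Untreated colitis mice drank DSS and received saline. Probiotic healthy mice received both strains without DSS, and untreated healthy mice received saline. No healthy mice received cyclosporine, and methocel is named for the cyclosporine mice alone, so the drug and its vehicle cannot be told apart. The series describes the mice as biological replicates; 5 mice shared a cage, and which mice did so is not given in the sources used here.

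Potassium channels set the resting potential of nearly every cell. In the colonic epithelium, basolateral channels recycle the potassium that sodium pumps and cotransporters bring in and keep the voltage that drives chloride out through apical channels, while apical channels secrete potassium. In the muscle layer, calcium-activated and voltage-gated channels end the action potentials that drive contraction. Enteric neurons use voltage-gated channels to repolarise, and T cells and macrophages use a small set of channels to sustain calcium entry. The genes were assigned to epithelium, muscle, nerve, immune cells or other sites from general knowledge of where each is known to act. Earlier results of these data were known when this was done. In bulk tissue, fewer cells of a type and less RNA per cell cannot be told apart.

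The median log2 expression of the arrays lay between 6.22 and 6.29, no 2 arrays were identical, and pairs of arrays correlated with r between 0.965 and 0.994 over probe sets. Probiotic colitis mouse 8, untreated colitis mouse 6 and untreated healthy mouse 2 lay away from the rest of their groups. They were chosen after seeing the data. Untreated colitis mouse 6 had the lowest mean r with its own group of all 20 arrays, at 0.9860. Some other arrays correlated no better with their groups than probiotic colitis mouse 8 or untreated healthy mouse 2. The mean r with the own group was 0.9872 in untreated colitis mouse 5 and 0.9886 in cyclosporine colitis mouse 9. It was 0.9876 in probiotic colitis mouse 8 and 0.9894 in untreated healthy mouse 2. Without the 3 arrays that stand apart the count of potassium channel genes called was 23 in place of 21 for untreated colitis against untreated healthy mice, and 20 with and without them for probiotic colitis against probiotic healthy mice. The tissue label was checked against markers: the mean log2 expression of 11 epithelial markers was 10.67 to 11.00 over all 20 arrays. Below, values per mouse are log2 expression listed by ascending animal number, which was 4, 7, 9 and 10 in cyclosporine colitis, 3, 5, 7 and 8 in probiotic colitis, 5, 6, 7 and 10 in untreated colitis, 4, 5, 6 and 7 in probiotic healthy and 2, 4, 6 and 7 in untreated healthy mice. Changes are differences of group means on the log2 scale (± standard error, n = 4 mice per group), and rose, fell or called mean a Benjamini-Hochberg adjusted p under 0.05 in limma over all 16739 genes.

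Untreated colitis raised 6 and lowered 15 of the 81 potassium channel genes against untreated healthy mice, by log2 changes between -0.75 and 1.46. That is 25.9% of the members, beside 26.1% of all genes tested. At this filter, potassium channel genes were thus called about as often as other genes. Upward calls made up 11.7% and downward calls 14.4% of all genes. The median change of the members was -0.06, against -0.03 over all genes. With a stricter filter, at a level of 6.60, 18 of 34 members were called. The share of all genes called under it is not given here. By assigned site, the 9 epithelial genes had 4 called up and 3 called down, and the 11 muscle genes 0 up and 5 down. The 27 nerve genes had 0 up and 5 down, the 4 immune genes 2 up and 0 down, and the 29 genes of other sites 0 up and 2 down. Whether the sites differ was not tested. Kcnma1, which acts in both epithelium and muscle, was not called. By structural class, 7 of 32 voltage-gated pore genes were called down and 1 up, 2 of 13 inward rectifier genes were called up and 0 down, and the 13 tandem-pore-domain genes had 2 up and 3 down. The 7 calcium- or sodium-activated pore genes had 0 up and 2 down, and the 15 auxiliary subunit genes 1 up and 3 down.

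Probiotic colitis against probiotic healthy mice, a pair with no array in common with the untreated pair, gave 6 genes called up and 14 down, 24.7% of members beside 29.7% of all genes, of which 13.6% were called up and 16.1% down. Each gene had a single estimate of spread over all 5 groups, so the calls of these pairs are not independent. In both pairs 16 genes were called in the same direction, 5 up and 11 down, and 0 in opposite directions. These 16 were 76.2% of the calls in the untreated pair and 80.0% of those in the probiotic pair. Over all 16739 genes, 3014 were called in both pairs in the same direction and 3 in opposite directions, and the 3014 were 69.1% of the calls in the untreated pair and 60.7% of those in the probiotic pair. Whether the members' shares differ from these was not tested. Kcne2, Kcnh2, Kcnk9, Kcnmb1 and Kcnn2 were called in the untreated pair alone, and Kcnab2, Kcnb2, Kcnq3 and Kcnv2 in the probiotic pair alone. Their colitis changes were not shown to differ between the pairs: in the test of the difference 0 of the 81 members passed, as did 0% of all genes, with 8 members at p under 0.05 before adjustment, and the lowest adjusted p was 0.473. The plot of log2 changes sets the colitis comparisons side by side for the 28 genes called in at least 1 of them.

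**Figure D1:**
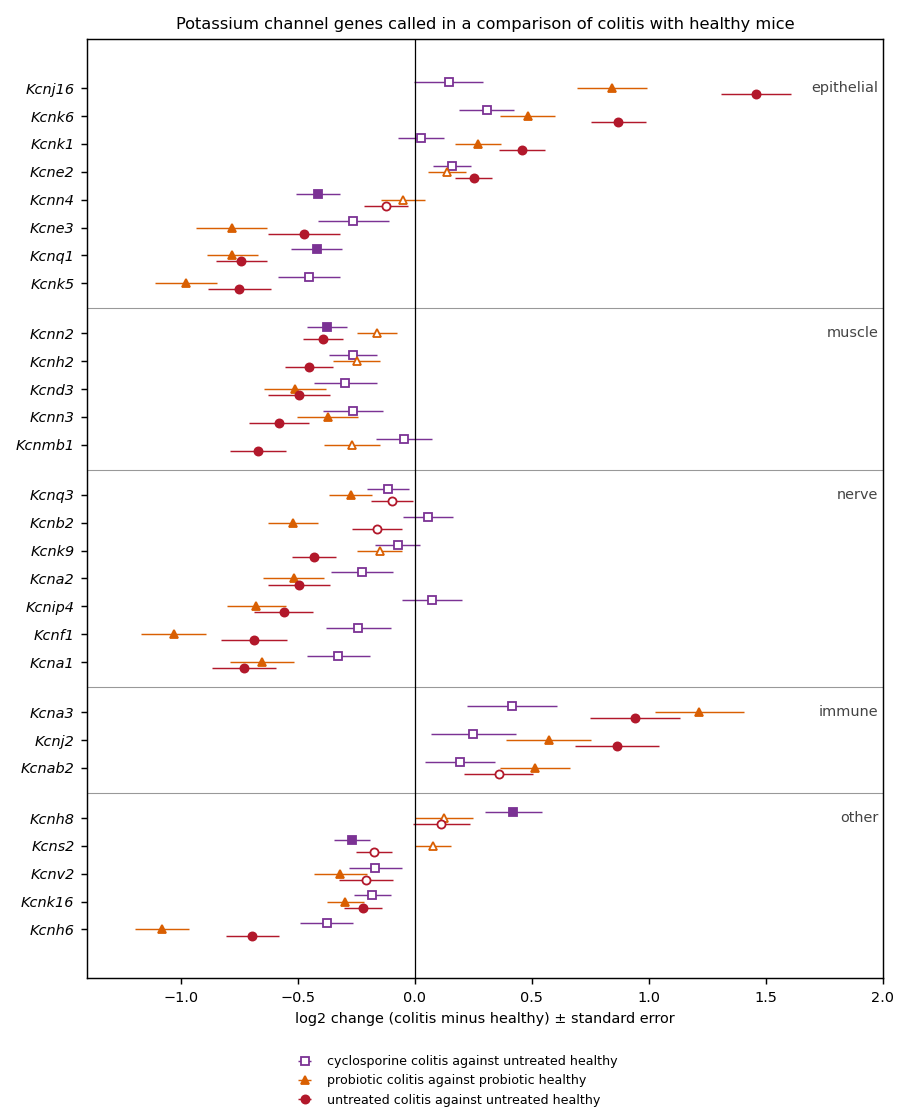
Log2 change of colitis minus healthy mice with its standard error for the 28 potassium channel genes called in at least 1 of the 3 comparisons, grouped by site; filled symbols passed an adjusted p of 0.05 and open symbols did not. Kcnj16 lies farthest to the right at 1.46 in untreated colitis, and the muscle and nerve genes lie mostly left of 0.

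Kcnj16, an inward rectifier subunit known from the basolateral membrane of kidney tubules, had the largest change of all members in untreated colitis. Its log2 expression was 5.71, 5.85, 5.60 and 5.54 in cyclosporine colitis, 6.45, 6.37, 6.66 and 6.26 in probiotic colitis and 6.59, 7.15, 7.52 and 6.68 in untreated colitis, against 5.61, 5.64, 5.58 and 5.53 in probiotic healthy and 5.41, 5.62, 5.42 and 5.67 in untreated healthy mice. Every untreated and probiotic colitis mouse lay above every healthy mouse, while the cyclosporine colitis mice overlapped the healthy ones. The healthy and cyclosporine colitis values were not far above 5.30, the level used to filter dim genes. This limits what the size of the rise and the overlap can show. Kcnj16 rose by 1.46 ± 0.15 in untreated colitis, 2.75-fold (adjusted p = 2.83e-06), and by 0.84 ± 0.15 in probiotic colitis against its own healthy group (adjusted p = 0.000256). In cyclosporine colitis it fell by 1.31 ± 0.15 on the log2 scale against untreated colitis, and the groups did not overlap (adjusted p = 3.91e-05). Against untreated healthy mice the cyclosporine colitis change was 0.14, with a 95% confidence interval of -0.17 to 0.45 (adjusted p = 0.584).

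The other epithelial genes that rose were the tandem-pore-domain channel genes Kcnk6 and Kcnk1 and the auxiliary subunit gene Kcne2. Kcnk6 measured 8.37, 8.42, 8.76 and 8.48 in cyclosporine colitis, 8.87, 8.81, 8.86 and 8.59 in probiotic colitis and 8.69, 9.11, 9.31 and 9.16 in untreated colitis, against 8.30, 8.28, 8.37 and 8.24 in probiotic healthy and 8.41, 8.21, 8.20 and 7.98 in untreated healthy mice. All 4 untreated colitis mice and all 4 probiotic colitis mice exceeded every healthy mouse. The rise of Kcnk6 was 0.87 ± 0.12 in untreated colitis (1.83-fold, adjusted p = 4.45e-05) and 0.48 ± 0.12 in probiotic colitis (adjusted p = 0.00381), and cyclosporine colitis was lower than untreated colitis, at -0.56 ± 0.12 (adjusted p = 0.00415). Kcnk1 measured 10.39, 10.25, 10.24 and 10.27 in cyclosporine colitis and 10.40, 10.90, 10.86 and 10.72 in untreated colitis and 10.48, 10.28, 10.18 and 10.10 in untreated healthy mice; untreated colitis mouse 5 lay within the healthy range and the other 3 above it. It rose by 0.46 ± 0.10 in untreated colitis (adjusted p = 0.00215) and was lower in cyclosporine than in untreated colitis, at -0.43 ± 0.10 (adjusted p = 0.00739). In the probiotic pair the rise of Kcnk1 was 0.27 (adjusted p = 0.047), a call that ended on leaving out probiotic colitis mouse 3, 5 or 7 or probiotic healthy mouse 4, 5 or 7, at adjusted p between 0.0606 and 0.127, and with no filter (0.0598). Kcne2, a small subunit that modifies several pore proteins, rose by 0.25 ± 0.08 in untreated colitis (adjusted p = 0.0263). Leaving out untreated colitis mouse 6 or 10 or untreated healthy mouse 4 or 7 ended that call, at adjusted p between 0.0559 and 0.0918.

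Kcnq1, Kcne3 and Kcnk5 fell. Kcnq1 encodes the pore and Kcne3 the auxiliary subunit of a basolateral channel of colonic crypts that supports chloride secretion, and Kcnk5 encodes a tandem-pore-domain channel gated by alkaline pH and found in epithelia that transport bicarbonate. Kcnq1 measured 8.45, 8.36, 8.25 and 8.34 in cyclosporine colitis, 7.78, 7.74, 7.84 and 8.17 in probiotic colitis and 7.65, 8.28, 8.08 and 8.11 in untreated colitis, against 8.59, 8.81, 8.58 and 8.66 in probiotic healthy and 8.76, 8.75, 8.82 and 8.75 in untreated healthy mice. All 12 colitis mice lay below all 8 healthy mice. Kcnq1 fell by 0.74 ± 0.11 in untreated colitis (1.67-fold lower, adjusted p = 9.9e-05) and by 0.78 ± 0.11 in probiotic colitis (adjusted p = 2.93e-05). Under cyclosporine it fell by 0.42 ± 0.11 against untreated healthy mice (adjusted p = 0.032), a call that ended on leaving out cyclosporine colitis mouse 7, 9 or 10 or untreated healthy mouse 2, 6 or 7, at adjusted p between 0.0549 and 0.0715, and with arrays centred on their median (0.0511). Cyclosporine colitis was higher in Kcnq1 than probiotic colitis, by 0.47 ± 0.11 (adjusted p = 0.00435), while the difference of 0.32 from untreated colitis did not pass (adjusted p = 0.0571).

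Kcne3 was expressed at 10.77, 10.57, 10.54 and 11.02 in cyclosporine colitis, 9.86, 9.86, 10.05 and 10.57 in probiotic colitis and 10.16, 10.60, 10.64 and 10.65 in untreated colitis, against 10.73, 10.84, 11.00 and 10.90 in probiotic healthy and 11.28, 11.00, 10.78 and 10.89 in untreated healthy mice. In both pairs every colitis mouse lay below every healthy mouse, and untreated colitis mouse 5 was the lowest of its group. Kcne3 changed by -0.78 ± 0.15 in probiotic colitis (1.72-fold lower, adjusted p = 0.000644) and the untreated pair gave -0.47 ± 0.15 (adjusted p = 0.0278). The call in the untreated pair ended on leaving out untreated colitis mouse 5 (adjusted p = 0.106), untreated healthy mouse 2 (0.0949) or untreated healthy mouse 4 (0.054). Cyclosporine colitis exceeded probiotic colitis in Kcne3 by 0.64 ± 0.15 (adjusted p = 0.00525), with overlapping groups.

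Kcnk5 fell by nearly the same amount as Kcnq1 in untreated colitis. Its levels were 8.97, 9.01, 8.89 and 8.45 in cyclosporine colitis, 8.29, 8.18, 8.41 and 8.75 in probiotic colitis and 8.41, 8.85, 8.42 and 8.44 in untreated colitis, against 9.27, 9.31, 9.38 and 9.58 in probiotic healthy and 9.16, 9.31, 9.25 and 9.41 in untreated healthy mice. Untreated and probiotic colitis mice lay below all healthy mice, untreated colitis mouse 6 was the highest of its group, and cyclosporine colitis mouse 10 was the only mouse of its group in the range of the other colitis groups. Kcnk5 fell by 0.75 ± 0.13 in untreated colitis (1.68-fold, adjusted p = 0.00047) and by 0.98 ± 0.13 in probiotic colitis (1.97-fold, adjusted p = 2.34e-05). The cyclosporine colitis change against untreated healthy mice was -0.45 ± 0.13 and did not pass (adjusted p = 0.0512).

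The start regions of these genes show the sequence context of an epithelial gene that rose, Kcnj16, and of a pair that fell, Kcne3 and Kcnk5; they were chosen after their values were seen. Each is 250 bases before to 50 bases after an annotated start, 5′ to 3′ on the gene's strand, from RefSeq with build GRCm38.p6, with capitals for a match to a searched motif. The windows are chr11:110967783-110968082 on the + strand (1 of 4 annotated Kcnj16 starts), chr7:100176420-100176719 on the + strand (1 of 2 Kcne3 starts) and chr14:20181733-20182032 on the - strand (the single Kcnk5 start); where a gene had several, the window with most matches was taken, and the first in the table on a tie.
Kcnj16: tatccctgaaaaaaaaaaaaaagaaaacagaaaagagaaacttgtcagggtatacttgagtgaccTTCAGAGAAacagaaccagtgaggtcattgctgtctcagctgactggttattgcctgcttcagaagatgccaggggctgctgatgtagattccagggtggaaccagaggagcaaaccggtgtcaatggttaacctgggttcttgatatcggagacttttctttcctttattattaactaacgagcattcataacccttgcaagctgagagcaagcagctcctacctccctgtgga
Kcne3: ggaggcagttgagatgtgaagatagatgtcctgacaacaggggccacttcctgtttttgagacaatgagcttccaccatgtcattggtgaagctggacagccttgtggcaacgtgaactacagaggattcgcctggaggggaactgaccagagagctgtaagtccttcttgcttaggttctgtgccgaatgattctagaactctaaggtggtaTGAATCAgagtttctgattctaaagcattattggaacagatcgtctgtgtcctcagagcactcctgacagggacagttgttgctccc
Kcnk5: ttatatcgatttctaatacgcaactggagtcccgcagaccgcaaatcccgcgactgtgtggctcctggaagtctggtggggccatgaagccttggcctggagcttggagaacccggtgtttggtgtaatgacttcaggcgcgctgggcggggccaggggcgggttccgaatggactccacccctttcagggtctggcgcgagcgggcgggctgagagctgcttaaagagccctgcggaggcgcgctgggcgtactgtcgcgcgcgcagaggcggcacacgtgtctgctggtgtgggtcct
Both strands were searched for 7 motifs, which were TATAAA (the TATA box), TGANTCA (a looser pattern than the AP-1 site, which it includes), CAAAGTCCA (of hepatocyte nuclear factors), TTTATNG (of caudal homeobox factors), TTCNNNGAA (of STAT factors), the CArG box of muscle genes and the kappa B motif. The capitals in Kcnj16 match TTCNNNGAA, which 8.3% of all 32851 windows hold, and those in Kcne3 match TGANTCA, which 7.81% hold, in letters other than the AP-1 site itself; the Kcnk5 window holds none of the 7 motifs. A Kcnj16 start not printed tied at 1 match, to the TATA box. The remaining Kcnj16 starts and the other Kcne3 start held no match. As the printed windows of these genes were picked for their matches, the shares of all windows do not measure how unusual a match is. The TATA box letters stand in 13.6% of all windows, TTTATNG in 10.9%, the kappa B motif in 4.51%, the CArG box in 1.63% and CAAAGTCCA in 0.475%. GC content was 44.3% in Kcnj16, 48.3% in Kcne3 and 63.7% in Kcnk5. Of the 81 tested genes, 62 had windows, 84 in all, and 9.52% of the 84 held TTCNNNGAA and 4.76% TGANTCA. Each match is a description of letters in the window.

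Kcnn4, the calcium-activated channel of the basolateral membrane that T cells and macrophages also use, was not called in untreated colitis (-0.12, 95% confidence interval -0.32 to 0.07, adjusted p = 0.362). It measured 7.94, 7.99, 8.08 and 8.13 in cyclosporine colitis, 8.41, 8.52, 8.20 and 8.17 in untreated colitis and 8.57, 8.33, 8.43 and 8.46 in untreated healthy mice. All 4 cyclosporine colitis mice lay below both other groups. The fall in cyclosporine colitis was -0.41 ± 0.09 against untreated healthy mice (adjusted p = 0.0166), lost without cyclosporine colitis mouse 4 (adjusted p = 0.0529) or untreated healthy mouse 2 (0.0573). Against untreated colitis it was -0.29 (adjusted p = 0.0481), lost without cyclosporine colitis mouse 4, 7 or 9 or untreated colitis mouse 5 or 6, at adjusted p between 0.0685 and 0.129, and under 6 other settings, at adjusted p between 0.0523 and 0.121. Against probiotic colitis it was -0.26 (adjusted p = 0.048), lost without cyclosporine colitis mouse 4, 7 or 9, or among the probiotic colitis mice number 5, 7 or 8, at adjusted p between 0.0514 and 0.164, and under 6 other settings, at adjusted p between 0.0615 and 0.0811. Kcnj15, an inward rectifier of secretory epithelia, was called in none of the 8 comparisons, with a change of 0.04 in untreated colitis and a 95% confidence interval of -0.19 to 0.26.

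**Figure D2:**
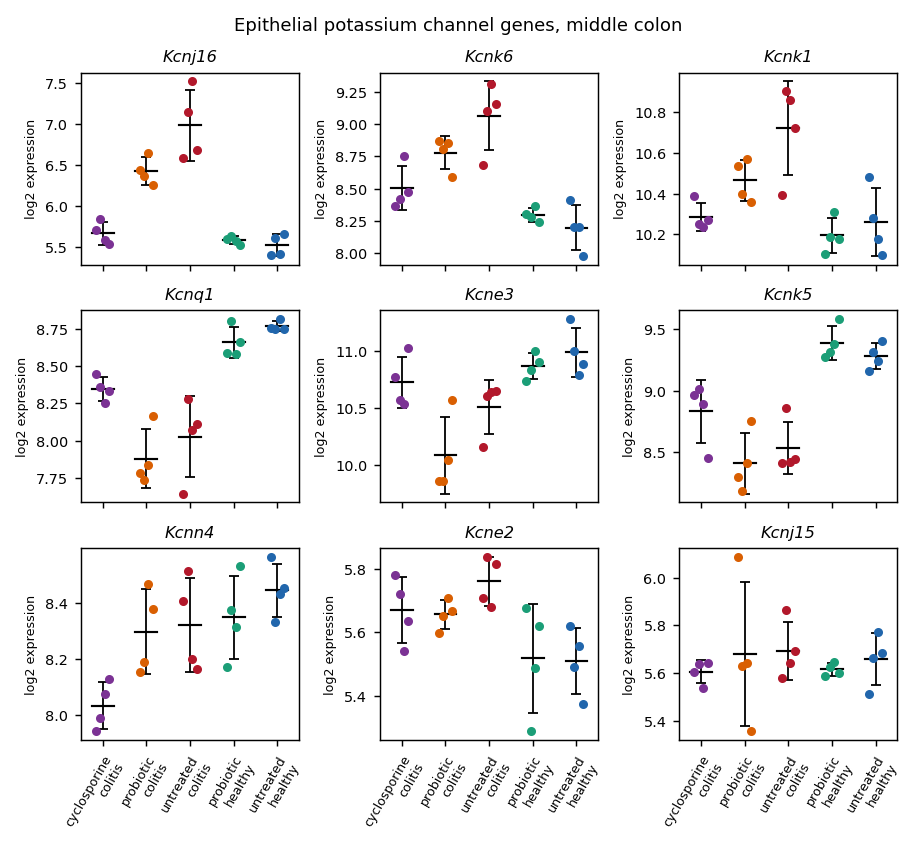
Log2 expression of the 9 tested epithelial potassium channel genes in each of 20 mice, 5 groups of 4; points are mice, the horizontal line is the group mean and bars are ± 1 SD, and each panel has its own axis. Kcnj16 and Kcnk6 are highest in untreated colitis, at group means of 6.99 and 9.07, and Kcnq1 is lower in all 12 colitis mice than in all 8 healthy mice.

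Outside the family, the transporters that work with these channels moved both ways. Of 16 tested epithelial ion transport partners, untreated colitis had 2 called up and 6 down. Slc12a2, the basolateral cotransporter that loads chloride, rose by 0.49 ± 0.11 (adjusted p = 0.00281). Slc26a3, the apical chloride and bicarbonate exchanger, changed by -1.18 ± 0.16 (adjusted p = 4.84e-05), and Scnn1a, a subunit of the epithelial sodium channel, by -0.68 ± 0.08 (adjusted p = 1.05e-05). In cyclosporine against untreated colitis, 4 were called up and 1 down: Slc26a3 rose by 0.99 ± 0.16 (adjusted p = 0.000645) and Slc12a2 changed by -0.42 ± 0.11 (adjusted p = 0.0157). The probiotic pair had 1 called up and 9 down. Of 11 epithelial markers, untreated colitis had 0 called up and 2 down, and their mean log2 expression per array was 10.67 to 10.94 in untreated colitis and 10.90 to 11.00 in untreated healthy mice; their part in the epithelial changes was not tested.

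In the muscle group, 5 of 11 tested genes (45.5%, beside 14.4% of all genes called down) fell in untreated colitis and 0 rose: Kcnmb1, Kcnn3, Kcnn2, Kcnh2 and Kcnd3. The sites were assigned with earlier results of these data known, so this share cannot serve as a test of muscle genes as a group. Kcnmb1 encodes the accessory subunit that raises the calcium sensitivity of the large-conductance channel in smooth muscle. It measured 8.73, 9.41, 9.20 and 9.04 in cyclosporine colitis, 8.77, 8.87, 8.73 and 8.87 in probiotic colitis and 8.71, 8.34, 8.27 and 8.55 in untreated colitis, against 9.08, 9.17, 9.13 and 8.94 in probiotic healthy and 8.94, 9.11, 9.22 and 9.28 in untreated healthy mice. All 4 untreated colitis mice lay below every healthy mouse, and 3 of the 4 cyclosporine colitis mice were within or above the untreated healthy range. Kcnmb1 fell by 0.67 ± 0.12 in untreated colitis (1.59-fold, adjusted p = 0.000465) and was higher in cyclosporine than in untreated colitis by 0.62 ± 0.12 (1.54-fold, adjusted p = 0.00226, groups without overlap). In the probiotic pair its change was -0.27 and did not pass (adjusted p = 0.1). Kcnma1, the pore gene of the same channel, changed by 0.02 ± 0.09 in untreated colitis (95% confidence interval -0.17 to 0.21, adjusted p = 0.892) and was called in none of the 8 comparisons. A dimmer second Kcnma1 probe set, with a mean log2 expression of 5.39, gave 0.19 in the untreated pair and 0.50 in the probiotic pair, where the brighter one gave -0.02.

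Kcnn3 and Kcnn2 encode small-conductance calcium-activated channels of muscle, interstitial cells and neurons. Kcnn3 measured 7.44, 7.01, 7.23 and 7.47 in untreated colitis and 7.88, 7.72, 7.99 and 7.90 in untreated healthy mice, without overlap, and fell by 0.58 ± 0.13 (adjusted p = 0.00275). In the probiotic pair Kcnn3 fell by 0.37 (adjusted p = 0.0355), lost without probiotic colitis mouse 3, 5 or 7 or probiotic healthy mouse 4, 5 or 6, at adjusted p between 0.0575 and 0.0972. Kcnn2 measured 5.10, 5.43, 5.47 and 5.39 in cyclosporine colitis, 5.45, 5.15, 5.31 and 5.41 in untreated colitis and 5.62, 5.66, 5.76 and 5.86 in untreated healthy mice. Both colitis groups lay below untreated healthy mice. Kcnn2 fell by 0.39 ± 0.08 in untreated colitis (adjusted p = 0.0021) and by 0.38 ± 0.08 in cyclosporine colitis against the same healthy mice (adjusted p = 0.0157), the call under cyclosporine being lost without cyclosporine colitis mouse 4 (adjusted p = 0.0521), untreated healthy mouse 7 (0.0551) or with the compared groups fitted alone (0.0622). Of 5 interstitial cell markers, 4 were called down and 0 up in untreated colitis with a median change of -0.46, 4 down and 1 up in the probiotic pair, and 2 up and 0 down in cyclosporine against untreated colitis with a median of 0.39. Their mean log2 expression per array was 8.91 to 9.15 in cyclosporine colitis, 8.58 to 9.04 in probiotic colitis and 8.58 to 8.75 in untreated colitis, against 9.07 to 9.14 in probiotic healthy and 8.84 to 9.17 in untreated healthy mice. Their part in the Kcnn2 and Kcnn3 results was not tested.

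Kcnh2, a voltage-gated channel gene that sets the resting potential of gut smooth muscle, measured 6.61, 6.74, 6.60 and 6.94 in untreated colitis and 7.06, 7.22, 7.24 and 7.17 in untreated healthy mice, and fell by 0.45 ± 0.10 (adjusted p = 0.00289). Kcnd3, which carries a transient outward current in muscle and nerve, measured 6.60, 6.74, 6.78 and 6.98 in untreated colitis and 7.36, 7.24, 7.08 and 7.39 in untreated healthy mice, and changed by -0.49 ± 0.13 (adjusted p = 0.0102). Neither gene's groups overlapped. Kcnd3 also fell in the probiotic pair, by 0.51 ± 0.13 (adjusted p = 0.00634), and Kcnd3 and Kcnn3 were the 2 of 11 muscle genes called there. Kcnj8, the pore gene of vascular ATP-sensitive channels, was called in cyclosporine against probiotic colitis alone (-0.64 ± 0.20, adjusted p = 0.0273), lost without cyclosporine colitis mouse 4 or 9, or among the probiotic colitis mice number 3, 5 or 7, at adjusted p between 0.0702 and 0.0944. In that comparison 10 of 13 smooth muscle markers were called up and 0 down, with a median change of 0.42. Of 6 endothelial markers, 3 were called down and 0 up, with a median change of -0.28. Their mean log2 expression per array was 8.05 to 8.29 in cyclosporine colitis and 8.37 to 8.65 in probiotic colitis, and their part in the Kcnj8 result was not tested. Kcna5, Kcnj11, Kcne4, Kcnk2 and Kcnab1 were not called in any comparison. Of 13 smooth muscle markers, untreated colitis had 12 called down and 0 up with a median change of -0.60, and cyclosporine against untreated colitis had 11 called up and 0 down. Their mean log2 expression per array was 9.72 to 10.33 in cyclosporine colitis, 9.47 to 9.96 in probiotic colitis and 9.43 to 9.78 in untreated colitis, against 10.10 to 10.22 in probiotic healthy and 10.18 to 10.32 in untreated healthy mice. Cyclosporine colitis mouse 4, at 9.72, lay within the untreated colitis range, while mice 7, 9 and 10 of its group measured 10.31, 10.33 and 10.13. The part of these markers in the muscle gene results was not tested.

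Among 27 tested nerve genes, 5 fell and 0 rose in untreated colitis, and these 18.5% lie near the 14.4% of all genes called down, so the count is no result about nerve genes as a group. They were Kcna1 and Kcna2, pore subunits of axonal channels, Kcnf1, a silent subunit that modifies other pore proteins, Kcnip4, a calcium-binding partner of transient outward channels, and Kcnk9, an acid-sensitive tandem-pore-domain channel. Kcna1 measured 6.20, 6.31, 5.98 and 6.19 in cyclosporine colitis, 5.65, 6.18, 5.93 and 6.33 in probiotic colitis and 5.93, 6.08, 5.50 and 5.55 in untreated colitis, against 6.58, 6.76, 6.67 and 6.69 in probiotic healthy and 6.33, 6.63, 6.55 and 6.48 in untreated healthy mice. Every colitis mouse except probiotic colitis mouse 8 lay below every healthy mouse; that mouse was level with untreated healthy mouse 2 at 6.33. Kcna1 fell by 0.73 ± 0.14 in untreated colitis (adjusted p = 0.000667) and by 0.65 ± 0.14 in probiotic colitis (adjusted p = 0.00112), and the difference of 0.40 between cyclosporine and untreated colitis did not pass (adjusted p = 0.0552). Kcna2 changed by -0.50 ± 0.13 in untreated colitis (adjusted p = 0.00926) and by -0.52 ± 0.13 in probiotic colitis (adjusted p = 0.00534). At 6.39, untreated colitis mouse 5 lay within the untreated healthy range for Kcna2, while the other 3 lay between 5.84 and 5.93.

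Kcnf1 measured 6.63, 7.30, 7.20 and 6.69 in cyclosporine colitis, 6.13, 6.27, 6.37 and 6.63 in probiotic colitis and 6.52, 6.70, 6.28 and 6.54 in untreated colitis, against 7.33, 7.49, 7.22 and 7.47 in probiotic healthy and 7.03, 7.21, 7.31 and 7.24 in untreated healthy mice. In both pairs colitis and healthy mice did not overlap, and cyclosporine colitis mice 7 and 9 lay in the healthy range while mice 4 and 10 lay with the untreated colitis mice. Kcnf1 fell by 0.69 ± 0.14 in untreated colitis (adjusted p = 0.00134) and by 1.03 ± 0.14 in probiotic colitis, 2.04-fold (adjusted p = 2.21e-05), and exceeded probiotic colitis by 0.61 ± 0.14 in cyclosporine colitis (adjusted p = 0.00399). Cyclosporine colitis exceeded untreated colitis by 0.45 (adjusted p = 0.0401), a call that ended on leaving out cyclosporine colitis mouse 7 or 9 or untreated colitis mouse 5, 7 or 10, at adjusted p between 0.0664 and 0.145, with no filter (0.0502) or with the compared groups fitted alone (0.135). Kcnip4 measured 6.66, 7.21, 6.79 and 6.85 in cyclosporine colitis, 6.44, 6.13, 5.99 and 6.40 in untreated colitis and 6.73, 6.82, 6.70 and 6.96 in untreated healthy mice. The untreated colitis mice lay below both other groups without overlap. Kcnip4 fell by 0.56 ± 0.13 in untreated colitis (adjusted p = 0.00306) and by 0.68 ± 0.13 in probiotic colitis (adjusted p = 0.000447), and was higher in cyclosporine than in untreated colitis by 0.63 ± 0.13 (adjusted p = 0.00311).

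Kcnk9 was dim, with group means in untreated colitis (5.10), probiotic colitis (5.13) and probiotic healthy mice (5.28) under the filter level of 5.30, so its fall of 0.43 ± 0.09 in untreated colitis (adjusted p = 0.0025) runs into the low end of the signal. It exceeded untreated colitis by 0.36 in cyclosporine colitis (adjusted p = 0.0177), a call lost without cyclosporine colitis mouse 7 (adjusted p = 0.0697) or with the compared groups fitted alone (0.0623), and it exceeded probiotic colitis by 0.33 (adjusted p = 0.0151), lost without that mouse (0.0624) or probiotic colitis mouse 3 (0.0545) or 5 (0.052), or with the compared groups fitted alone (0.0529). Kcnb2, a delayed rectifier gene, fell in the probiotic pair by 0.52 ± 0.11 (adjusted p = 0.00111), where colitis mice measured 6.17, 6.11, 5.95 and 6.17 and healthy mice 6.46, 6.63, 6.76 and 6.63, without overlap. Its change in the untreated pair was -0.16 (adjusted p = 0.296), and cyclosporine colitis exceeded probiotic colitis by 0.53 ± 0.11 (adjusted p = 0.00163). Kcnq3, a subunit of the M-current of neurons, fell in the probiotic pair by 0.27 (adjusted p = 0.0268), lost without probiotic colitis mouse 3, 7 or 8 or probiotic healthy mouse 4, 6 or 7, at adjusted p between 0.0519 and 0.0768, and without the 3 arrays that stand apart (0.0697). Kcnt2, a sodium-activated channel gene, exceeded untreated colitis by 0.57 in cyclosporine colitis (adjusted p = 0.0227), lost without cyclosporine colitis mouse 7 or 9 or untreated colitis mouse 6 or 7, at adjusted p between 0.0534 and 0.0906, and with the compared groups fitted alone (0.0731).

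Of 10 enteric neuron markers, 2 rose and 5 fell in untreated colitis, with a median change of -0.34, beside a median of -0.10 over the 27 nerve channel genes. Their mean log2 expression per array was 6.84 to 7.37 in cyclosporine colitis, 6.93 to 7.08 in probiotic colitis and 7.01 to 7.09 in untreated colitis, against 7.25 to 7.44 in probiotic healthy and 7.23 to 7.33 in untreated healthy mice. Cyclosporine colitis mouse 4 was the lowest of all mice, at 6.84, while mice 7, 9 and 10 of its group measured 7.37, 7.32 and 7.29. The part of these markers in the nerve gene results was not tested. Among 11 tested partner genes of these channels outside the family, Dpp10 and Dpp6, accessory subunits of transient outward channels, fell in untreated colitis, and the other 9 were not called. Dpp10 changed by -1.22 ± 0.23 (adjusted p = 0.000853) and Dpp6 by -0.29 ± 0.07 (adjusted p = 0.0045). In cyclosporine against untreated colitis Dpp10 rose by 1.23 ± 0.23 (adjusted p = 0.00221).

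**Figure D3:**
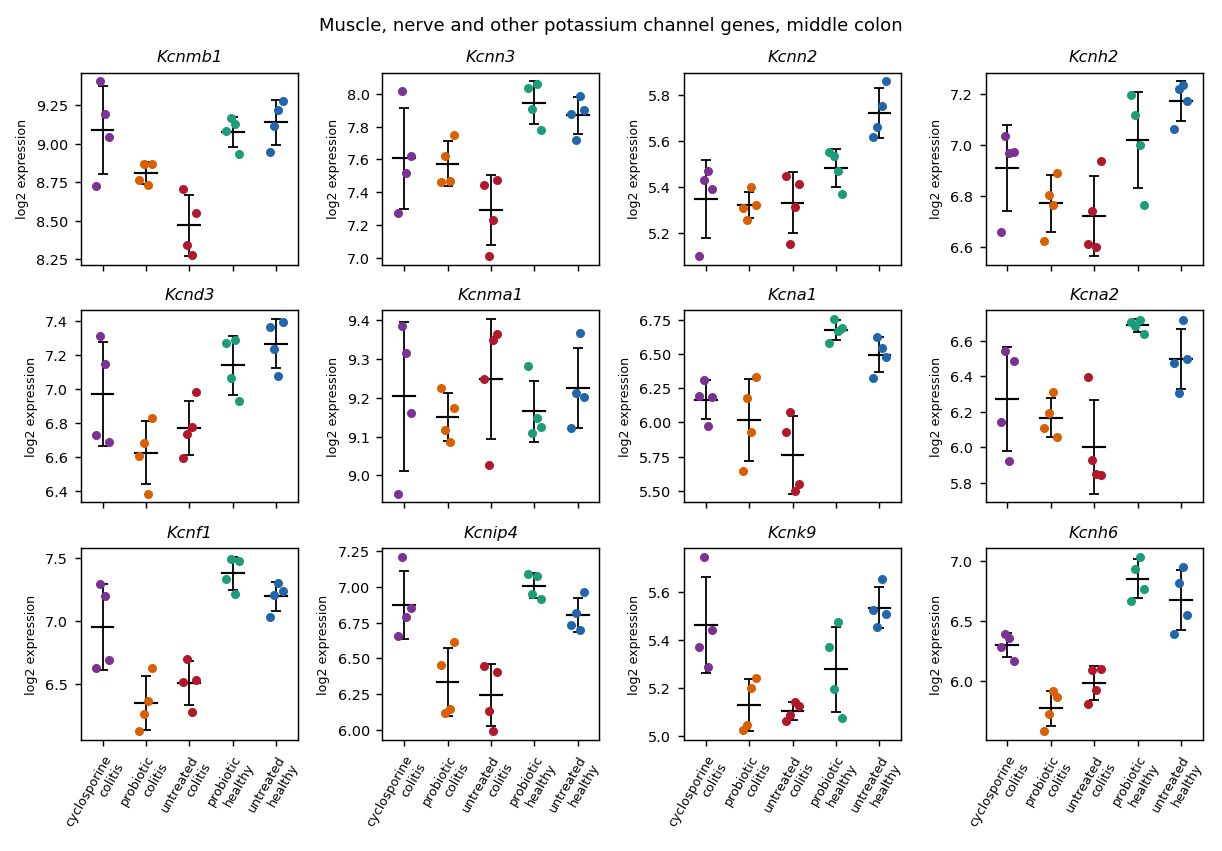
Log2 expression in each of 20 mice of 5 muscle genes, Kcnma1, 5 nerve genes and Kcnh6; points are mice, lines are group means and bars ± 1 SD, and each panel has its own axis. The untreated colitis mice are lower than the untreated healthy mice in every panel except Kcnma1, with 1 overlapping mouse for Kcna2. The cyclosporine colitis mice spread widely in several panels, among them Kcnn3, Kcnmb1, Kcnf1, Kcna2 and Kcnd3.

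Of the 4 immune genes, Kcna3 and Kcnj2 rose in untreated colitis. Kcna3, the voltage-gated channel that sustains calcium entry in T cells, measured 7.20, 6.79, 6.81 and 7.29 in cyclosporine colitis, 7.89, 8.31, 8.24 and 7.97 in probiotic colitis and 8.20, 6.98, 7.77 and 7.25 in untreated colitis, against 6.84, 7.01, 6.95 and 6.74 in probiotic healthy and 6.61, 6.65, 6.40 and 6.77 in untreated healthy mice. All untreated and probiotic colitis mice lay above the healthy mice of their pair, and untreated colitis spanned a wide range, with mouse 6 lowest at 6.98 and mouse 5 highest at 8.20. Kcna3 rose by 0.94 ± 0.19 in untreated colitis (1.92-fold, adjusted p = 0.00138) and by 1.22 ± 0.19 in probiotic colitis (2.32-fold, adjusted p = 9.07e-05). Cyclosporine colitis was lower than probiotic colitis, at -1.08 ± 0.19 without overlap (adjusted p = 0.000645), while its difference from untreated colitis was -0.53 (adjusted p = 0.0751). Kcnj2, an inward rectifier of macrophages and muscle, measured 6.26, 6.75, 7.41 and 6.72 in untreated colitis and 6.01, 6.01, 5.87 and 5.80 in untreated healthy mice, and rose by 0.86 ± 0.18 without overlap (1.82-fold, adjusted p = 0.0017). In the probiotic pair Kcnj2 rose by 0.57 (adjusted p = 0.0216), lost without probiotic colitis mouse 7 (adjusted p = 0.0615), probiotic healthy mouse 4 (0.0608) or the 3 arrays that stand apart (0.05003). It was lower in cyclosporine than in untreated colitis, at -0.61 (adjusted p = 0.0308), lost without cyclosporine colitis mouse 4, 7 or 10 or untreated colitis mouse 7, at adjusted p between 0.0511 and 0.106, and with the compared groups fitted alone (0.159). Without untreated colitis mouse 7 that change was -0.40.

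Kcnab2, a cytosolic beta subunit of voltage-gated channels, rose in the probiotic pair by 0.51 ± 0.15 (adjusted p = 0.0126); its change of 0.36 in the untreated pair did not pass (adjusted p = 0.0825). Kcnk13, a tandem-pore-domain channel of macrophages and microglia, was called in none of the 8 comparisons, and its untreated colitis change had a 95% confidence interval of -0.22 to 0.12. Of 6 T cell markers 5 rose and 0 fell in untreated colitis, and of 8 macrophage markers 6 rose and 0 fell. The mean log2 expression of the T cell markers per array was 6.48 to 6.99 in cyclosporine colitis, 7.50 to 8.03 in probiotic colitis and 6.54 to 8.04 in untreated colitis, against 6.24 to 6.39 in probiotic healthy and 6.10 to 6.32 in untreated healthy mice. Macrophage markers averaged 8.24 to 8.64 in cyclosporine colitis, 9.13 to 9.92 in probiotic colitis and 8.08 to 9.20 in untreated colitis, against 8.07 to 8.31 in probiotic healthy and 7.81 to 7.93 in untreated healthy mice. The part of these markers in the immune channel results was not tested.

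**Figure D4:**
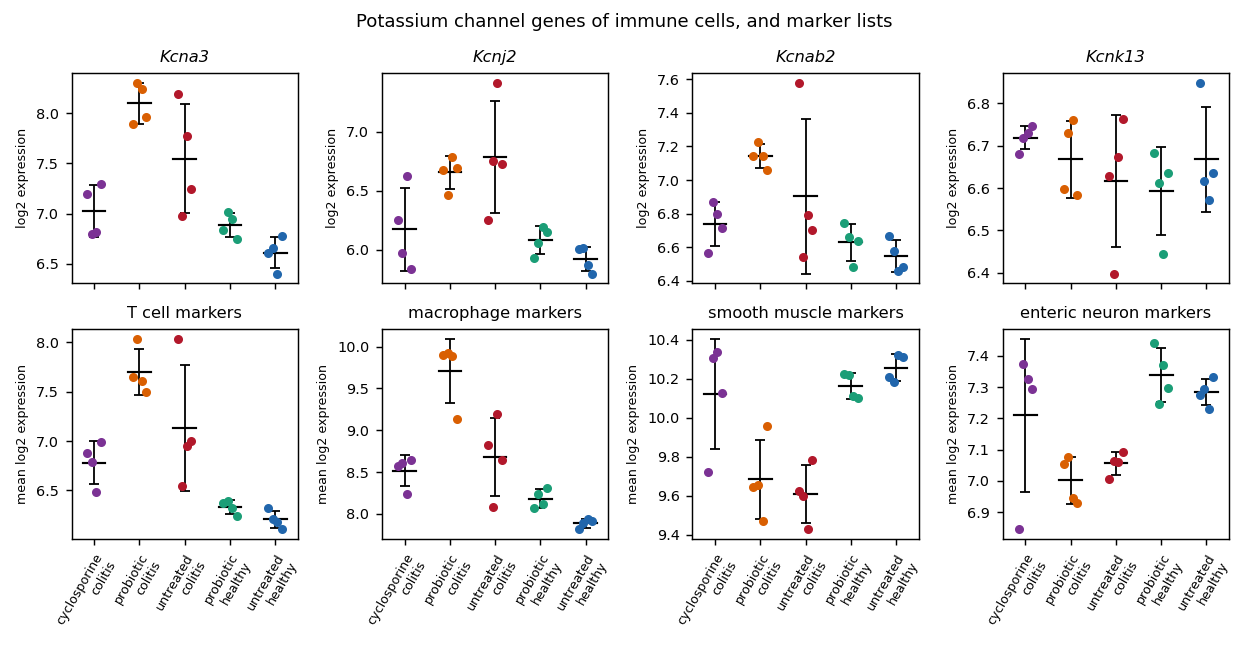
Top row, log2 expression of the 4 immune potassium channel genes in each of 20 mice; bottom row, the mean log2 expression per mouse of 6 T cell, 8 macrophage, 13 smooth muscle and 10 enteric neuron markers, with group means and ± 1 SD. Kcna3, the T cell markers and the macrophage markers are each highest on average in probiotic colitis. Untreated colitis mouse 5 is the highest of its group in Kcna3, at 8.20, and in the T cell markers, at 8.04.

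Among genes assigned to other sites, Kcnh6, a voltage-gated channel gene related to Kcnh2, fell in both pairs. It measured 6.28, 6.40, 6.36 and 6.17 in cyclosporine colitis, 5.58, 5.73, 5.92 and 5.86 in probiotic colitis and 5.81, 6.09, 5.93 and 6.10 in untreated colitis, against 6.67, 6.94, 7.04 and 6.77 in probiotic healthy and 6.40, 6.82, 6.95 and 6.55 in untreated healthy mice. The colitis and healthy groups did not overlap in either pair. Kcnh6 changed by -0.70 ± 0.11 in untreated colitis (1.62-fold lower, adjusted p = 0.000242) and by -1.08 ± 0.11 in probiotic colitis (2.12-fold lower, adjusted p = 2.68e-06), and was 0.53 ± 0.11 higher in cyclosporine than in probiotic colitis (adjusted p = 0.00256). Kcnk16, a channel gene known from pancreatic islets, fell by 0.30 in the probiotic pair (adjusted p = 0.00793) and by 0.22 in the untreated pair (adjusted p = 0.047), where the call ended on leaving out untreated colitis mouse 5, 7 or 10 or untreated healthy mouse 2, 4 or 6, at adjusted p between 0.0557 and 0.129, and under 6 other settings of the processing, at adjusted p between 0.0594 and 0.0817. Kcnv2, a silent subunit gene, was called down in the probiotic pair (adjusted p = 0.0409), but its probiotic colitis mean of 5.00 was under the filter level of 5.30 and its probiotic healthy mean of 5.31 was level with it, so no size is given. The call was lost without probiotic colitis mouse 3 or 7 or probiotic healthy mouse 5, 6 or 7, at adjusted p between 0.0625 and 0.15, and under 4 other settings, at adjusted p between 0.0515 and 0.0822.

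Cyclosporine colitis against untreated colitis compares mice that drank DSS and received the drug in its vehicle with mice that drank DSS and received saline. Here 5 potassium channel genes were called up and 5 down, 12.3% of members beside 13.2% of all genes, with 7.58% of all genes called up and 5.58% down. Kcnmb1, Kcnip4, Kcnf1, Kcnk9 and Kcnt2, all of muscle or nerve, were the 5 called up. Those called down were the epithelial genes Kcnj16, Kcnk6, Kcnk1 and Kcnn4 and the immune gene Kcnj2. Leaving out cyclosporine colitis mouse 7 gave 6 calls in place of 10, and leaving out the 3 arrays that stand apart gave 16. The shares of all genes called in those fits are not given here. Kcnj16, Kcnk6, Kcnk1, Kcnmb1 and Kcnip4 were called whichever single array was left out. The untreated colitis mice serve in this comparison and in the one with untreated healthy mice.

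Against untreated healthy mice, cyclosporine colitis had 1 potassium channel gene called up and 4 down, 6.17% of members beside 6.02% of all genes, which split into 2.64% called up and 3.38% down. Kcnn2, Kcnn4 and Kcnq1 are described above; Kcns2, a silent subunit gene, changed by -0.27 (adjusted p = 0.0476), and Kcnh8, a voltage-gated channel gene counted among other sites, rose by 0.42 (adjusted p = 0.048). Each of these calls was lost without some single array. For Kcns2 these were cyclosporine colitis mice 4, 7 and 9 and untreated healthy mice 2 and 4, at adjusted p between 0.0648 and 0.133, and 6 other settings ended the call at adjusted p between 0.0605 and 0.162. For Kcnh8 they were cyclosporine colitis mice 4, 7 and 9 and all 4 untreated healthy mice, at adjusted p between 0.0522 and 0.128, and its change was 0.27 without cyclosporine colitis mouse 9; 4 other settings gave adjusted p between 0.0614 and 0.122. The count of 5 became 1 without cyclosporine colitis mouse 4, 2 without cyclosporine colitis mouse 7 or 9 or untreated healthy mouse 2 or 7, and 3 without untreated healthy mouse 4 or 6.

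Against probiotic colitis, cyclosporine colitis had 8 potassium channel genes called up and 4 down, 14.8% of members beside 23.2% of all genes, where 11.3% were called up and 12% down. The 8 were Kcnq1, Kcne3, Kcnk5, Kcnf1, Kcnip4, Kcnb2, Kcnk9 and Kcnh6, and the 4 were Kcnj16, Kcnn4, Kcnj8 and Kcna3. Kcnj16 changed by -0.76 ± 0.15 (adjusted p = 0.00127). Kcnip4 was higher by 0.54 ± 0.13 (adjusted p = 0.00444). Kcnk5 was higher by 0.42 (adjusted p = 0.0276), lost without cyclosporine colitis mouse 4, 7 or 9, or among the probiotic colitis mice number 3, 5 or 7, at adjusted p between 0.0583 and 0.104, and with the compared groups fitted alone (0.0803).

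Probiotic colitis against untreated colitis, the comparison for the strains in inflamed tissue, had 0 potassium channel genes called up and 1 down, 1.23% of members beside 2.8% of all genes, with 2.13% up and 0.669% down. The gene was Kcnj16, at -0.55 ± 0.15 (adjusted p = 0.0494), with overlapping groups. The call ended on leaving out probiotic colitis mouse 3, 5, 7 or 8 or untreated colitis mouse 6 or 7, at adjusted p between 0.0672 and 0.189, and under 3 other settings, at adjusted p between 0.0618 and 0.251. The count itself was 9 without untreated colitis mouse 5, 3 without probiotic colitis mouse 8, 2 without untreated colitis mouse 10, and 0 on leaving out probiotic colitis mouse 3, 5 or 7 or untreated colitis mouse 6 or 7. For these counts, the shares of all genes called are not given here. The change of Kcnj16 with colitis differed between the probiotic and the untreated pair by -0.62 ± 0.21, which did not pass (adjusted p = 0.473). In healthy mice, probiotic against untreated, limma called 0 of 81 members and 0% of all genes, with 6 members at p under 0.05 before adjustment, 0.424 as the lowest adjusted p and changes between -0.34 and 0.28.

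Of the 81 tested genes, 51 were called in none of the 8 comparisons, among them Kcnma1, Kcnj15, Kcnk13 and the noncoding transcript Kcnq1ot1. In every group 75 of the 81 had a mean above the filter level. The 9 genes too dim to test were Kcna4, Kcnc2, Kcnd3os, Kcnh5, Kcnh7, Kcnip2, Kcnj1, Kcnrg and Kcnu1. A further 4 Kcn probe sets carried more than 1 symbol and were not used.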

How the data were processed

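The deposited table holds log2 expression per probe set, made by the authors with RMA per the submitters' processing notes; its version is not given in the sources used here. The deposited values were taken without further normalization, and no column of another sample was present. Probe sets with 1 symbol in the platform annotation were kept, and symbols were matched to RefSeq by gene ID (96 of 96 members, 0 renamed). The brightest probe set stood for a gene, and a gene was tested if it exceeded the 25th percentile of single-symbol probe set values (5.30) on at least 4 of 20 arrays. One linear model over the 5 groups was fitted with limma 3.58.1 (lmFit, eBayes) in R 4.3.3, with 15 residual and 4.03 prior degrees of freedom, 8 comparisons, and Benjamini-Hochberg adjustment over 16739 genes at 0.05. The script was tested on simulated data. Named were all tested epithelial, muscle and immune members, Kcnma1, the 6 nerve and 6 other members with the smallest p, and every further member called in a comparison; of partner and marker lists, up to 4 genes with the smallest p. Members, sites and lists were chosen with earlier results of these data known. Animal numbers name mice within a group: arrays of the same number did not deviate together (r between -0.19 and 0.43 over 20 pairs). The number of arrays limits the precision. Alternatives were other filters and normalizations, array weights, other fits, and leaving out each array. Levels of different probe sets were not compared.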

Additional observations from a re-analysis of the deposited data

Results flagged for a closer look

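Across the 42 named genes and 5 groups, 210 sets of 4 values were examined for 1 mouse far from the other 3, and 7 had one; chance alone gives about 1 in 20. Kcna2 in untreated colitis was 6.39 in mouse 5, above the other 3 at 5.84 to 5.93. Kcne3 in untreated colitis was 10.16 in mouse 5, below the others at 10.60 to 10.65, and its call in the untreated pair was lost without that mouse (adjusted p = 0.106). Kcnk5 in untreated colitis was 8.85 in mouse 6, above the others at 8.41 to 8.44. Kcnj4 in cyclosporine colitis was 5.52 in mouse 9, below the others at 5.80 to 5.86, and Kcnv2 in cyclosporine colitis was 5.01 in mouse 7, below the others at 5.25 to 5.27. Kcnk2 in untreated healthy mice was 5.49 in mouse 7, below the others at 5.69 to 5.73. Kcnq1 in untreated healthy mice was 8.82 in mouse 6, above the others at 8.75 to 8.76, a small gap in a tight group.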

How the results depend on the processing

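Of 69 calls of a named gene in a comparison, 46 held under every alternative in which the gene was tested. Among them, Kcnk9 and Kcnn2 in the untreated pair and Kcnk16 in the probiotic pair were too dim for the stricter filter. The other 23 were lost without at least 1 array, 18 of them also under another setting (14 with the compared groups fitted alone, 9 with no filter, 9 without the 3 arrays that stand apart, 5 with arrays centred on their median, 4 with quantile normalization again, 4 with array weights and 2 with a trend and robust eBayes). No called change reversed its direction. Leaving out 1 array at a time gave 18 to 23 potassium channel genes called in untreated colitis against untreated healthy mice (21 with all arrays), 16 to 22 in the probiotic pair (20), 1 to 4 in cyclosporine colitis against untreated healthy mice (5), 0 to 9 in probiotic against untreated colitis (1), 6 to 13 in cyclosporine against untreated colitis (10) and 8 to 14 in cyclosporine against probiotic colitis (12). The count for cyclosporine colitis against untreated healthy mice was 3 with no filter, 3 with arrays centred on their median and 2 with the compared groups fitted alone. Probiotic against untreated colitis gave 0 with no filter, 2 with the stricter filter, 6 with array weights, 0 with the compared groups fitted alone, and 2 without the 3 arrays that stand apart. Cyclosporine against untreated colitis gave 5 with the compared groups fitted alone, where fewer arrays estimate the spread, and 16 without those 3 arrays, an alternative chosen after seeing the data; the cause was not tested otherwise. With the animal number as a replicate block, whose correlation was 0.00916, the count in untreated colitis against untreated healthy mice was 21 and no count of calls changed. Probe sets near the filter level, as for Kcne2, Kcnk9, Kcnn2, Kcns2 and Kcnv2, limit what can be said of low genes. The same limit holds for Kcnj16 in healthy and cyclosporine colitis mice. Probiotic against untreated healthy mice gave 0 calls under each alternative. As the shares of all genes called under the alternatives are not given here, these counts are no result about potassium channel genes as a group.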

Other observations

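Untreated colitis mouse 5 had the highest value of its group in Kcna3 (8.20), in Kcnab2 (7.58, against 6.54 to 6.80 in the other 3) and in the mean of the T cell markers (8.04), and the lowest in Kcne3 (10.16) and Kcnq1 (7.65). Without this mouse, probiotic against untreated colitis had 9 potassium channel genes called in place of 1. The share of all genes called without it is not given here, so this is no result about potassium channel genes. The mean log2 expression of 4 neutrophil markers per array was 5.66 to 5.79 in cyclosporine colitis, 6.29 to 9.44 in probiotic colitis and 6.01 to 9.37 in untreated colitis, against 5.41 to 6.39 in probiotic healthy and 5.37 to 5.58 in untreated healthy mice.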
